A study of Homo sapiens with 6 samples.

Results

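The transforming growth factor beta (TGF-beta), activin and bone morphogenetic protein (BMP) genes were followed in the RNA of 786-O cells. The cells had received guide RNA against the gene for PHF8, a histone demethylase, or control guide RNA. The set holds 43 genes of the 54261 gene symbols in the count table, taken by symbol from a list of ligands, latent binding proteins, receptors, SMADs, feedback genes, ID targets and antagonists. 39 of the 43 had enough reads to be tested, and BMP7, ID3, FST and GREM1 did not.

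Ligands of this superfamily are secreted dimers that bring a type II and a type I receptor kinase together on the cell surface. TGF-beta and activin receptors mostly phosphorylate SMAD2 and SMAD3, BMP receptors SMAD1, SMAD5 and SMAD9, and both classes of SMAD enter the nucleus with SMAD4. Part of the response feeds back on the pathway, through inhibitory SMADs, SMURF ubiquitin ligases, the co-repressors SKI and SKIL and the decoy receptor BAMBI. In kidney, TGF-beta is best known for its part in matrix deposition and fibrosis, and BMP signals for nephron formation.

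786-O is a human line of clear cell renal cell carcinoma, grown in RPMI-1640 with fetal bovine serum. The knockout cells had received guide RNA against PHF8 by a CRISPR-Cas9 method (3 libraries), and the control cells had received control guide RNA by the same method (3 libraries). The labels do not say if a group is 1 clone or a pool, nor if its 3 libraries stem from different dishes of cells, so p-values measure the spread between libraries, which may be technical. The sample titles add a number to the guide name, and do not say if the 3 libraries of a group share 1 guide. RNA levels do not show ligand protein, receptor on the surface or SMAD phosphorylation.

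Knockout libraries held 25632275 to 29095133 reads and control libraries 21533615 to 25055762. PHF8 had 10.8, 6.73 and 12.8 CPM (reads scaled to a common library size) in knockout libraries 1, 2 and 3, and 36.5, 35.0 and 32.9 CPM in control libraries 1, 2 and 3, a log2 fold change of -1.78 (SE 0.21, edgeR adjusted p = 0.000119). All log2 fold changes are knockout over control and all adjusted p-values are from edgeR's quasi-likelihood test over 14398 genes, with a threshold of 0.05. The kidney marker PAX8 was at 363 ± 43 CPM in knockout and 223 ± 11 CPM in control libraries (SD, n = 3 each), while the related PAX2 was lower, at 3.09 ± 0.455 CPM in knockout and 6.56 ± 0.668 CPM in control libraries (adjusted p = 0.000709). The 12 listed clear cell renal carcinoma markers summed to 8010 to 9440 CPM in knockout and 7170 to 7240 CPM in control libraries. Most of this was VIM, with a mean of 5980 CPM in knockout and 5150 CPM in control libraries. CA9 and NDUFA4L2, which mark clear cell carcinoma, were the 2 of these 12 that stayed under 1 CPM in all 6 libraries. Of the 10 leukocyte markers, 6 were at 0 in all 6 libraries, among them PTPRC, and the summed level of 113 to 122 CPM in knockout and 44 to 48.2 CPM in control libraries was almost all CD68. Fibroblast markers summed to 1.41 to 2.29 CPM in knockout and 4.74 to 5.12 CPM in control libraries with COL3A1 at 0. Endothelial markers summed to 4.08 to 6.72 CPM and 4.92 to 6.16 CPM with CDH5 and EMCN at 0.

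Of the 39 tested genes, 8 rose in knockout cells, 20 fell and 11 did not pass the threshold. Much of the transcriptome differed between the groups. Over all tested genes 59.7% passed, 28.9% higher and 30.8% lower in knockout cells. The members' split of 8 against 20 had a median log2 fold change of -0.40, beside -0.01 over all tested genes. With an offset for the length and GC of the transcript 10 were called higher and 12 lower and the median was -0.06. A change of at least 2-fold was found for 4 members that rose (INHBE, LTBP3, LTBP4 and PMEPA1) and 10 that fell (TGFB2, TGFB3, INHBA, BMP4, GDF11, TGFBR3, BMPR1A, BMPR2, SKIL and ID1), against 9.2% of all tested genes higher and 14.2% lower by that criterion. The 3 knockout values lay wholly above the control values for 8 tested members and wholly below them for 21, and 66.8% of all tested genes had groups that did not overlap. With library totals in place of TMM scaling, the median of all genes moved to -0.18 and the share of higher genes among those called to 36.7%, against 48.4% with TMM.

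**Figure D1:**
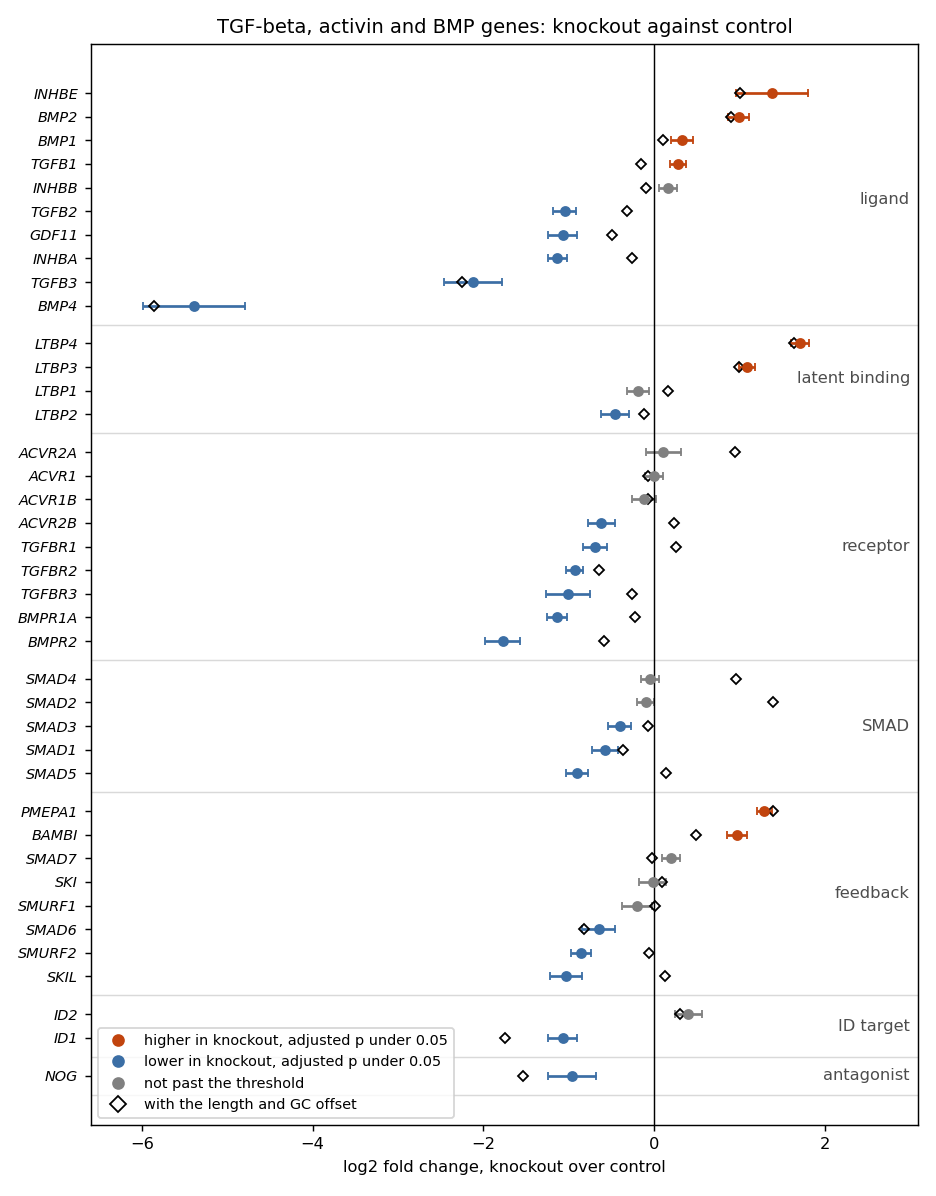
Log2 fold change of each tested gene, knockout over control, in blocks by role, with points for the edgeR estimate, bars for its SE and diamonds for the estimate after the offset for length and GC. LTBP4, INHBE, PMEPA1 and LTBP3 stand right of 1. Most receptor and SMAD points stand left of 0, while several of their diamonds stand nearer to it or past it.

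Fold changes followed the GC content and length of the transcript, both among all genes and among the members, and this bears on every result that follows. Across the 13297 tested genes with a matched transcript, the log2 fold change had a Spearman correlation of 0.48 with GC content and of -0.41 with transcript length. Over the 39 members these were 0.44 and -0.29, given as descriptions since genes share the same 6 libraries. Members that rose had a median GC content of 57.2%, those that fell 44.4%, and those that did not pass 51.3%. An offset that removed this trend over all genes left 17 of the 28 called members called in the same direction (5 higher and 12 lower), moved 10 below the threshold and turned 1, TGFBR1. It also brought 4 members past the threshold that had not passed without it (ACVR2A, SMAD2, SMAD4 and ID2). With the offset, 58.6% of all tested genes passed, 30.5% higher and 28.1% lower in knockout cells. Whether the trend comes from the libraries or from the knockout cannot be told apart here, so values with the offset are given beside the main ones where they differ by over 1.5 times.

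**Figure D2:**
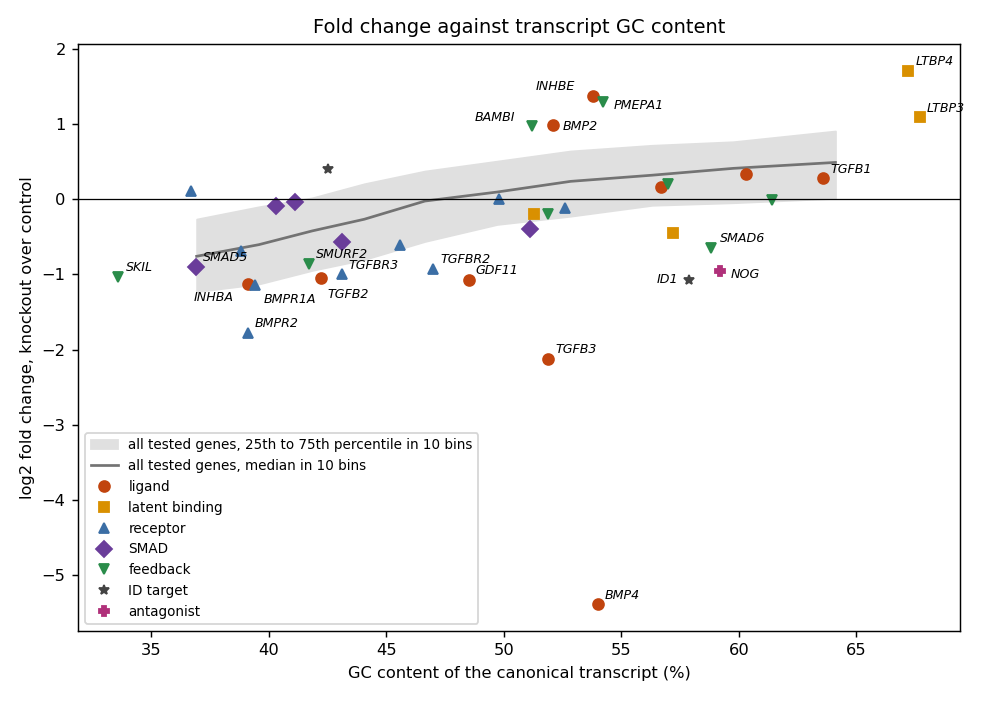
Log2 fold change (knockout over control) of each member against the GC content of its canonical transcript in percent, with the median of all tested genes in GC bins as a line. The line climbs from -0.76 in the lowest bin to 0.49 in the highest, and PMEPA1 and LTBP4 stand well above it while BMP4 and TGFB3 stand well below it.

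Among the TGF-beta ligands, TGFB2 and TGFB3 fell and TGFB1 rose slightly. TGFB2 had 30.4, 28.5 and 38.2 CPM in the 3 knockout libraries, against 59.2, 70.2 and 70.8 CPM in the 3 control libraries. Every knockout value was below every control value, with a log2 fold change of -1.04 (SE 0.14, adjusted p = 2.23e-04) and of -0.31 with the length and GC offset, and 34.2% of its exon bases lie under another gene. TGFB3 was sparse, with 17, 6 and 17 reads in knockout and 61, 56 and 54 reads in control libraries. Its summed reads, scaled by total reads without TMM, came to 20.4% of the control level. The 95% interval of 14.1% to 28.9% covers counting error only. With TMM scaling the edgeR estimate was 23.0% of the control level, a log2 fold change of -2.12 (SE 0.34, adjusted p = 6.34e-04). TGFB1, the isoform with the most RNA here, had 141, 141 and 163 CPM in knockout and 128, 122 and 116 CPM in control libraries. The groups did not overlap, and the log2 fold change was 0.28 (SE 0.10, adjusted p = 0.0323). That call did not hold with library totals only (0.11), without the filter on low counts (0.26), without knockout library 3 (0.21), control library 2 (0.30) or control library 3 (0.26), and the value was -0.15 with the offset.

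Per kilobase of canonical transcript, TGFB1 made up 90.4%, 91.1% and 89.8% of the 3 TGF-beta isoforms' RNA in knockout libraries and 80.9%, 77.7% and 76.7% in control libraries. The ratio of TGFB2 to TGFB1 reads within a library, which needs no scaling between libraries, was -2.20 ± 0.10 on the log2 scale in knockout and -0.87 ± 0.21 in control libraries (SD, n = 3 each). The groups were apart by -1.33, and by -0.16 once the offset was taken from both genes. An exact 2-sided permutation test of 3 against 3 libraries cannot give a p below 0.1, so no test is given for these ratios.

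The activin subunits moved unequally. INHBA, which encodes the beta A subunit of activin A, had 64.8, 68.4 and 69.6 CPM in knockout libraries and 127, 159 and 158 CPM in control libraries. All 3 knockout values were near each other and below the control values, with a log2 fold change of -1.13 (SE 0.11, adjusted p = 5.39e-05) and of -0.25 with the offset. INHBB, the beta B subunit, had 42.9, 38.3 and 41.3 CPM in knockout and 38.7, 36.4 and 34.2 CPM in control libraries, with overlapping groups and no call (0.17, adjusted p = 0.196; -0.09 with the offset). The INHBA to INHBB ratio was 0.73 ± 0.12 (log2) in knockout and 2.02 ± 0.26 in control libraries, a difference of -1.29 that was -0.16 with the offset. Per kilobase, INHBA was 45.8% ± 2.19 of the INHBA, INHBB and INHBE RNA in knockout and 67.8% ± 4.06 in control libraries (SD, n = 3 each). INHBE, the beta E subunit, had 36, 30 and 27 reads in knockout and 14, 4 and 17 reads in control libraries. The groups did not overlap and the log2 fold change was 1.38 (SE 0.42, adjusted p = 0.0184), but the call did not hold without knockout library 1 (1.22) or with the offset (1.0), and 16.4% of its exon bases lie under another gene.

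BMP2 and BMP4, which are close relatives and signal through the same receptors, moved in opposite directions. BMP2 had 33.0, 36.1 and 28.7 CPM in knockout and 17, 16.4 and 15.8 CPM in control libraries. The groups were well apart, with a log2 fold change of 0.99 (SE 0.12, adjusted p = 1.62e-04). BMP4, at chr14:53949736-53958761 (GRCh38), had 0, 3 and 0 reads in knockout libraries and 44, 51 and 43 reads in control libraries. All 3 reads of the knockout group were in library 2. The summed reads, scaled by total reads without TMM, came to 1.9% of the control level (95% interval 0.386% to 5.66%, counting error only). That is 52.7-fold lower with an interval of 17.7 to 259. With TMM scaling the edgeR estimate was 41.8-fold lower, with an adjusted p of 9.42e-05. The fitted log2 fold change was -5.39 and ran from -8.55 to -4.80 when 1 library was left out, the lower end without knockout library 2, and 16.3% of BMP4's exon bases lie under another gene. Per kilobase, BMP2 made up 99.5% ± 0.271 of the BMP2, BMP4 and BMP7 RNA in knockout and 82.8% ± 1.42 in control libraries (SD, n = 3 each).

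BMP7, known for its role in kidney development, had 2, 1 and 6 reads in knockout libraries and 0 in every control library. Against a floor of 3 counts over the control group the summed 9 knockout reads were 2.62-fold higher, scaled by total reads without TMM. That value leaves out the counting error of the knockout reads, and no test was run. GDF11, a ligand of the activin type, had 9.36, 6.65 and 9.62 CPM in knockout and 18.7, 19.0 and 16.2 CPM in control libraries. The groups did not overlap, with a log2 fold change of -1.07 (SE 0.17, adjusted p = 5.7e-04) and of -0.49 with the offset. BMP1, which despite its name is a metalloprotease that cuts procollagen and latent TGF-beta binding protein, had 54.4, 42.1 and 56.4 CPM in knockout and 42.7, 38.8 and 40.3 CPM in control libraries. The groups overlapped, and its value of 0.33 passed only just: it was below the threshold without knockout library 1 (0.28), knockout library 3 (0.25), control library 1 (0.39), control library 2 (0.32) or control library 3 (0.34), with DESeq2 (0.33), limma-voom (0.32), library totals (0.16) or no filter (0.31), and was 0.10 with the offset.

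**Figure D3:**
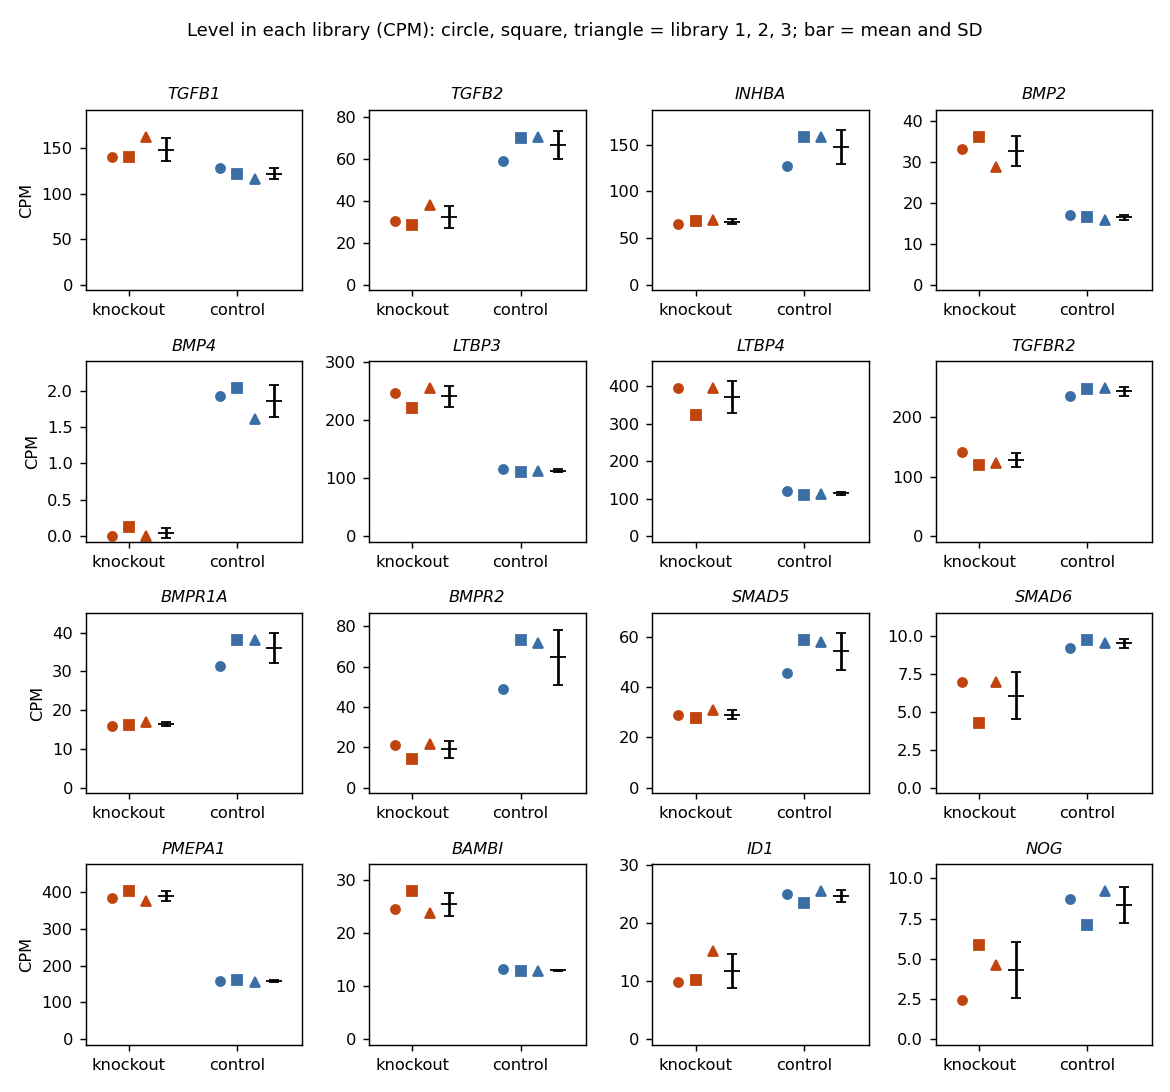
TMM-scaled CPM of 16 members in each library, knockout on the left and control on the right of each panel, with circles, squares and triangles for libraries 1, 2 and 3 and a bar for the mean and SD. The 16 are a selection that leaves out every tested member whose groups overlap, such as ACVR1 and SMAD2. The groups therefore do not overlap in any panel, and BMP4 in knockout cells sits at or near 0. Of all tested genes, 66.8% had groups that did not overlap.

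The latent TGF-beta binding proteins hold TGF-beta in the matrix in an inactive complex, and their RNAs changed in both directions. LTBP4, at chr19:40592883-40629818, had 395, 323 and 395 CPM in knockout and 119, 109 and 113 CPM in control libraries. The lowest knockout library was far above the highest control library, with a log2 fold change of 1.71 (SE 0.11, adjusted p = 8.4e-06), the largest rise among the 39 tested members. LTBP3, at chr11:65538559-65558930, had 247, 220 and 255 CPM in knockout and 115, 111 and 112 CPM in control libraries. The groups were again apart, with a log2 fold change of 1.09 (SE 0.09, adjusted p = 3.18e-05). Both kept their size with the length and GC offset, at 1.64 for LTBP4 and 1.0 for LTBP3.

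LTBP2, which unlike the others is not known to bind TGF-beta, had 40.0, 24.7 and 33.2 CPM in knockout and 45.3, 45.7 and 43.1 CPM in control libraries. Its groups did not overlap and it fell by 0.45 on the log2 scale (SE 0.16, adjusted p = 0.0365), with no call without knockout library 3 (-0.46), control library 1 (-0.42), control library 2 (-0.42) or control library 3 (-0.47), or with the offset (-0.11), and with a value of -0.29 without knockout library 2. LTBP1 had 8.28, 9.28 and 8.81 CPM in knockout and 9.69, 10.3 and 10.1 CPM in control libraries, a log2 fold change of -0.19 that did not pass (adjusted p = 0.225; 0.17 with the offset), and with library totals only it passed at -0.36. LTBP4 had per kilobase 57.6% ± 0.823 of the 4 LTBP genes' RNA in knockout and 43.1% ± 0.813 in control libraries (SD, n = 3 each). The LTBP4 to LTBP1 ratio was 5.39 ± 0.24 (log2) in knockout and 3.50 ± 0.11 in control libraries.

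No receptor rose: of the 9 tested, 6 fell (TGFBR1, TGFBR2, TGFBR3, ACVR2B, BMPR1A and BMPR2) and 3 did not pass (ACVR1, ACVR1B and ACVR2A). That is 66.7% called, with a median log2 fold change of -0.69 and a median transcript GC content of 43.1%. Over all tested genes 59.7% passed, 28.9% higher and 30.8% lower in knockout cells, with a median of -0.01. With the length and GC offset 2 of the 9 were called higher and 3 lower, and the median was -0.07. Of the BMP receptors, BMPR2, the type II receptor at chr2:202376327-202567751, fell most. It had 21.3, 14 and 21.5 CPM in knockout and 49.0, 73.4 and 71.6 CPM in control libraries. The groups were far apart, although control library 1 was lower than the other control libraries, and the log2 fold change was -1.77 (SE 0.21, adjusted p = 1.2e-04) and -0.59 with the offset. BMPR1A, a type I receptor, had 15.9, 16.2 and 17 CPM in knockout and 31.4, 38.2 and 38.2 CPM in control libraries, a log2 fold change of -1.14 (SE 0.12, adjusted p = 7.36e-05) and of -0.22 with the offset. ACVR1, another type I receptor used by BMPs, did not pass, with 37.2, 37.7 and 32.2 CPM in knockout and 36.2, 34.7 and 36.0 CPM in control libraries (log2 fold change 0.00, SE 0.11, adjusted p = 0.986; -0.07 with the offset). The BMPR2 to ACVR1 ratio was -0.94 ± 0.44 (log2) in knockout and 0.84 ± 0.35 in control libraries, a difference of -1.78 that was -0.52 with the offset.

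TGFBR2, the type II TGF-beta receptor at chr3:30606601-30694142, had per kilobase the highest level of the 9 receptors in both groups. It had 142, 119 and 123 CPM in knockout and 235, 247 and 249 CPM in control libraries. The groups did not overlap, and it fell by 0.93 on the log2 scale (SE 0.10, adjusted p = 7.5e-05) and by 0.65 with the offset. TGFBR1, its type I partner, had 25.5, 25.5 and 23.8 CPM in knockout and 32.4, 42.4 and 46.0 CPM in control libraries. It fell by 0.69 (SE 0.14, adjusted p = 0.00239), but with the offset its value was 0.26 and it was called higher, so the direction of TGFBR1 depended on this choice. TGFBR3, the co-receptor betaglycan, had 3.0, 1.73 and 2.61 CPM in knockout and 3.51, 5.56 and 5.60 CPM in control libraries, a log2 fold change of -1.0 (SE 0.26, adjusted p = 0.00827) that was -0.26 and no longer past the threshold with the offset.

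Of the activin type II receptors, ACVR2B fell and ACVR2A did not pass, and the difference between them was not tested. ACVR2B had 5.08, 4.52 and 4.88 CPM in knockout and 6.88, 6.72 and 8.55 CPM in control libraries, a log2 fold change of -0.61 (SE 0.16, adjusted p = 0.00821), with no call without control library 3 (-0.48) and a value of 0.23 with the offset. ACVR2A had 4.91, 7.58 and 4.96 CPM in knockout and 5.00, 5.88 and 5.26 CPM in control libraries, with knockout library 2 the highest of all and no call (0.11, adjusted p = 0.656; 0.95 with the offset). ACVR1B, the type I receptor for activin, had 21.1, 16 and 21.2 CPM in knockout and 22.3, 21.5 and 19.6 CPM in control libraries and did not pass (-0.12, adjusted p = 0.488; -0.07 with the offset).

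Among the SMADs that carry the signal, SMAD1 and SMAD5 of the BMP type and SMAD3 of the TGF-beta type fell, with SMAD5 turning to 0.14 under the offset, and SMAD2 and the shared SMAD4 did not pass. SMAD5 had 28.8, 27.6 and 30.9 CPM in knockout and 45.8, 59.0 and 58.0 CPM in control libraries. The groups were apart, with a log2 fold change of -0.90 (SE 0.13, adjusted p = 3.07e-04), and the offset removed the call. SMAD1 had 5.29, 5.61 and 5.44 CPM in knockout and 7.41, 7.44 and 9.45 CPM in control libraries, a log2 fold change of -0.57 (SE 0.16, adjusted p = 0.0103) that did not pass without control library 3 (-0.43) and was -0.36 with the offset. SMAD3 had 143, 114 and 167 CPM in knockout and 194, 181 and 184 CPM in control libraries. Its 3 knockout libraries were all lower but spread widely, and the value of -0.40 (SE 0.13, adjusted p = 0.0281) did not pass without knockout library 1 (-0.40), control library 1 (-0.35), control library 2 (-0.40) or control library 3 (-0.40), or with the offset (-0.07), and it was -0.26 without knockout library 2. SMAD2 had 48.9, 51.1 and 46.0 CPM in knockout and 47.8, 53.9 and 54.2 CPM in control libraries, and SMAD4 had 54.7, 60.4 and 49.7 CPM in knockout and 53.9, 58.2 and 57.6 CPM in control libraries. The groups of both genes overlapped, with log2 fold changes of -0.10 for SMAD2 (adjusted p = 0.447) and -0.04 for SMAD4 (adjusted p = 0.749). With the offset both were called higher, at 1.40 for SMAD2, whose canonical transcript is 34626 bases long, and 0.97 for SMAD4. The SMAD5 to SMAD4 ratio was -0.91 ± 0.22 (log2) in knockout and -0.07 ± 0.14 in control libraries, a difference of -0.85 that was -0.82 with the offset.

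**Figure D4:**
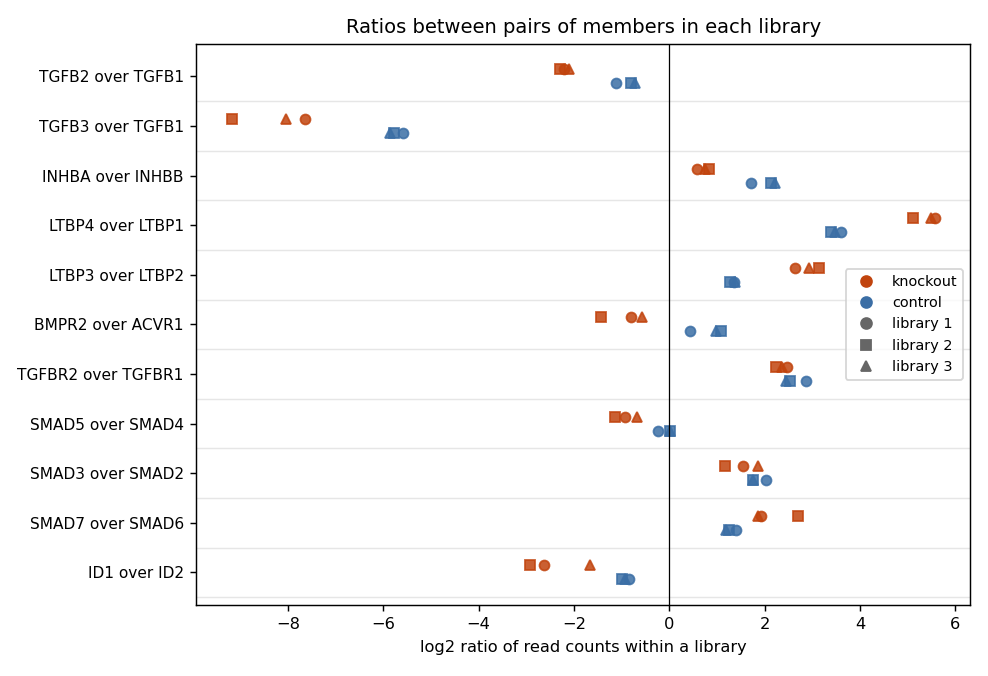
Log2 ratio of read counts for 11 pairs of members within each library, with knockout libraries drawn over control libraries in every row and circles, squares and triangles for libraries 1, 2 and 3. In 9 of the 11 rows the groups are apart, and for TGFBR2 over TGFBR1 and SMAD3 over SMAD2 they overlap. The pairs are a selection, several of them setting a called gene against one that did not pass. How often other pairs of genes lie apart was not computed. Of all single tested genes, 66.8% had groups that did not overlap.

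Of the 8 feedback genes, 2 rose (PMEPA1 and BAMBI), 3 fell (SMAD6, SMURF2 and SKIL) and 3 did not pass (SMAD7, SMURF1 and SKI). The share called, 62.5%, was near the 59.7% of all tested genes. With the offset 2 were called higher and 1 lower. PMEPA1, at chr20:57648392-57711536, is a TGF-beta target whose membrane protein keeps SMAD2 and SMAD3 from the receptor. It had 386, 404 and 378 CPM in knockout and 159, 161 and 155 CPM in control libraries. The replicates of each group lay close together and far from the other group, with a log2 fold change of 1.29 (SE 0.08, adjusted p = 9.82e-06) and of 1.39 with the offset. BAMBI, a pseudoreceptor without a kinase domain, had 24.5, 27.9 and 23.7 CPM in knockout and 13.1, 12.8 and 12.9 CPM in control libraries. Its groups did not overlap, and it rose by 0.97 (SE 0.12, adjusted p = 1.47e-04) and by 0.50 with the offset.

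The inhibitory SMADs did not rise with them. SMAD6, at chr15:66702236-66782849, acts mainly on BMP receptors and had 6.99, 4.27 and 6.94 CPM in knockout and 9.21, 9.76 and 9.56 CPM in control libraries. Knockout library 2 was the lowest, and the log2 fold change of -0.65 (SE 0.20, adjusted p = 0.0178) did not pass without control library 2 (-0.61) or control library 3 (-0.63). SMAD7, which also acts on TGF-beta receptors, had 26.5, 27.8 and 25.3 CPM in knockout and 24.2, 23.4 and 21.7 CPM in control libraries. Its groups did not overlap but the value of 0.20 did not pass (adjusted p = 0.141) and was -0.02 with the offset. The SMAD7 to SMAD6 ratio was 2.16 ± 0.47 (log2) in knockout and 1.28 ± 0.11 in control libraries.

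SKIL (SnoN), a co-repressor of SMADs, had 12.2, 11.6 and 13.3 CPM in knockout and 18.0, 26.9 and 30.8 CPM in control libraries, a log2 fold change of -1.03 (SE 0.19, adjusted p = 0.00143). Its groups were apart, control library 1 lying nearest to the knockout values, and the value was 0.13 with the offset. SMURF2, a ubiquitin ligase for SMADs and receptors, had 16.6, 17.3 and 20.2 CPM in knockout and 30.4, 32.5 and 35.0 CPM in control libraries and fell by 0.86 (SE 0.12, adjusted p = 3.44e-04), with a value of -0.06 and no call with the offset. Their relatives SKI and SMURF1 did not pass, at -0.01 (adjusted p = 0.946; 0.10 with the offset) and -0.20 (adjusted p = 0.351; 0.009 with the offset). Both had the lowest of their 6 values in knockout library 2, with 49.1 CPM for SKI and 55.4 CPM for SMURF1, while knockout libraries 1 and 3 were at 74.8 and 75 CPM for SKI and 93.2 and 86.2 CPM for SMURF1, against 66.1 to 67.9 CPM and 87.6 to 90.8 CPM in control libraries. Among the 39 tested members, knockout library 2 was the lowest of its group for 20, beside 42.2% of all tested genes.

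The ID genes encode inhibitors of basic helix-loop-helix factors and are direct BMP targets in many cells. ID1, at chr20:31605283-31606515, had 9.90, 10.1 and 15.1 CPM in knockout and 24.9, 23.4 and 25.5 CPM in control libraries. The groups did not overlap, with a log2 fold change of -1.07 (SE 0.17, adjusted p = 6.73e-04) and of -1.74 with the offset. ID2 had 61.5, 76.5 and 47.6 CPM in knockout and 44.9, 46.6 and 48.6 CPM in control libraries, with overlapping groups and a value of 0.40 that just missed the threshold (adjusted p = 0.0522) and passed in 7 of the 15 alternatives, among them without knockout library 3 (0.57) and with the offset (0.31), while it was 0.23 and did not pass without knockout library 2. ID3 had 18, 6 and 10 reads in knockout and 9, 7 and 4 reads in control libraries, too few to be tested. The ID1 to ID2 ratio was -2.40 ± 0.66 (log2) in knockout and -0.93 ± 0.07 in control libraries.

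Of the 3 antagonists, NOG alone had enough reads for a test. Noggin, its product, binds BMPs and keeps them from their receptors. It had 2.41, 5.85 and 4.59 CPM in knockout and 8.72, 7.08 and 9.22 CPM in control libraries. The groups did not overlap, with a log2 fold change of -0.96 (SE 0.28, adjusted p = 0.0148) that did not pass without control library 1 (-0.90) or control library 3 (-0.86) and was -1.53 with the offset. FST, which encodes the activin-binding protein follistatin, had 0 reads in knockout libraries and 3 in 1 control library. GREM1, a BMP antagonist, had 0 reads in all 6. Scaled by total reads without TMM, this allows up to 0.0372 CPM over the knockout group and 0.0426 CPM over the control group.

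**Figure D5:**
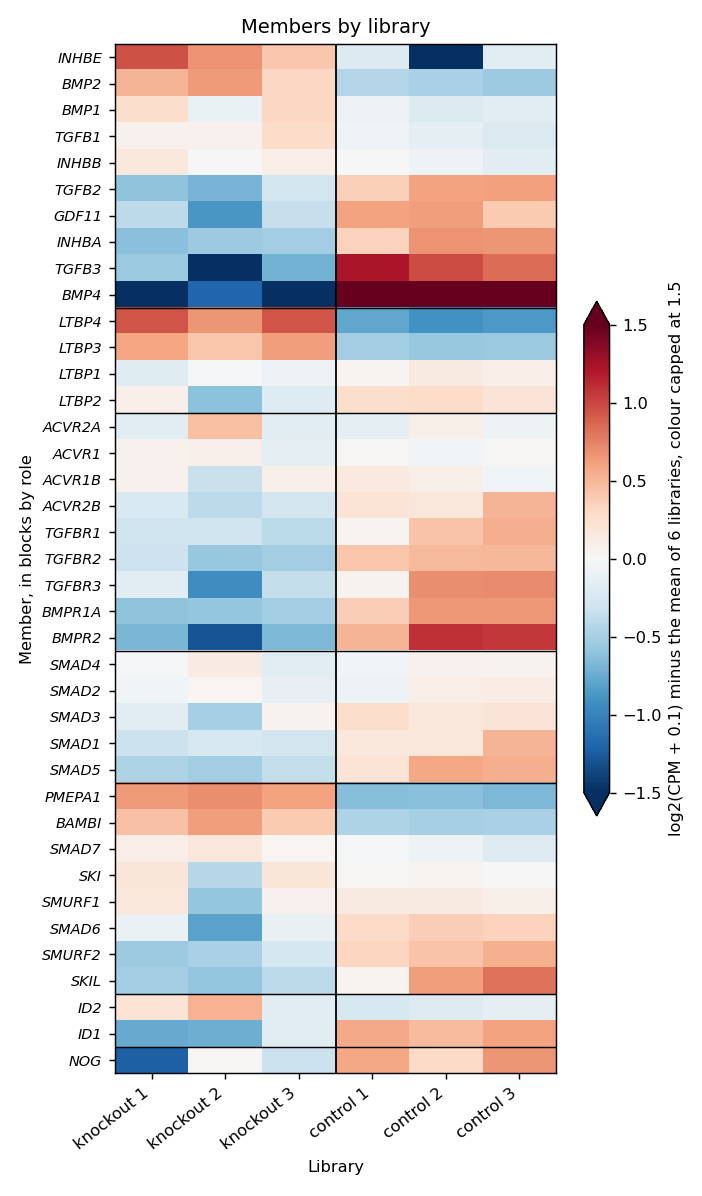
Each tested gene in each library as log2(CPM + 0.1) minus its mean over the 6 libraries, in blocks by role, with knockout libraries left of control libraries and colours capped at 1.5. LTBP4, LTBP3, PMEPA1, BAMBI and BMP2 are red in all 3 knockout libraries, and 6 receptors are blue there, of which TGFBR1 and ACVR2B turn with the offset.

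The promoters of 4 of these genes, chosen after their values were seen, are shown as examples: PMEPA1 and LTBP4 rose, ID1 is a BMP target that fell, and SMAD6, which also fell, is the member whose window holds the palindrome bound by SMADs. Each window runs from 250 bases before to 50 bases after a RefSeq start site (GRCh38.p14), 5′ to 3′ on the gene's strand, with capitals for a motif match.
PMEPA1, chr20:57709966-57710265, minus strand: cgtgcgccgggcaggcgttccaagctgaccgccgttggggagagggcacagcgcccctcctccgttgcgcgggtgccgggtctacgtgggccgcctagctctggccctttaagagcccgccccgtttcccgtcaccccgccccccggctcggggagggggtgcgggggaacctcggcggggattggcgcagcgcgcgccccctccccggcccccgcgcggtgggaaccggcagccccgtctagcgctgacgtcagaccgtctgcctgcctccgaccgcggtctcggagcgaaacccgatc
LTBP4, chr19:40601119-40601418, plus strand: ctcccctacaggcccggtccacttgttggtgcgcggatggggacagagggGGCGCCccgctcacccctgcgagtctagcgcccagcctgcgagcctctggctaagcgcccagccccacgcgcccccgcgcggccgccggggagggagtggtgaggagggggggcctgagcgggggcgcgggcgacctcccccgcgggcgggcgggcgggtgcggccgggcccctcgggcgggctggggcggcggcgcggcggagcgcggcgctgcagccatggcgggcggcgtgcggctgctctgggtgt
ID1, chr20:31605039-31605338, plus strand: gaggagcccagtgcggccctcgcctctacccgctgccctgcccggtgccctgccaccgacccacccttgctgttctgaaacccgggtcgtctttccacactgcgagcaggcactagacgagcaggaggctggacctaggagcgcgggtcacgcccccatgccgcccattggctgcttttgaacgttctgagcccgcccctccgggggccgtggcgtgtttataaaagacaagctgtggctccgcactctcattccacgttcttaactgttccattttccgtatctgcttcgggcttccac
SMAD6, chr15:66701986-66702285, plus strand: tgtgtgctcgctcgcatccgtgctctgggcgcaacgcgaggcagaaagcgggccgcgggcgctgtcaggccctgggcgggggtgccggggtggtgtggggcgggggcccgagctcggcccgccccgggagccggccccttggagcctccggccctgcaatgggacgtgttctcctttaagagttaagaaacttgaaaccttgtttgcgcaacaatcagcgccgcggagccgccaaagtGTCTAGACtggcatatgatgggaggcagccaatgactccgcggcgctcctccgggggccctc

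RefSeq windows were matched for 37 of the 43 genes, and 3 motifs were searched on both strands in these and in 35116 windows in all. For each member the 1 window nearest its canonical start was taken. The windows in all can hold several starts of a gene, such as 8 for TGFBR1. The SMAD palindrome GTCTAGAC, which SMAD6 has 12 bases before its start, was in 1 of 37 members (2.7%) and in 0.202% of all windows. The element CAGACA was in 6 of 37 (16.2%) and in 16.9% of all windows. The GC-rich element GGCGCC was in 14 of 37 (37.8%), LTBP4 among them at 200 bases before the start, and in 19.2% of all windows. Among members that rose, GGCGCC was in 2 of 5 windows, among those that fell in 6 of 19, and among those that did not pass in 5 of 10. GGCGCC is made of G and C alone, and the members' windows were not matched to all windows for GC content. Whether the shares differ was not tested. A match is a run of letters and not a shown binding site.

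A further 111 genes of the pathway were examined as lists, of which 69 were tested, 22 rose, 30 fell and 17 did not pass. Among all tested genes 59.7% passed, 28.9% higher and 30.8% lower in knockout cells. The counts of each list below are to be read beside these shares, and whether a list departs from them was not tested. With the length and GC offset 25 of the 69 were called higher and 23 lower. Of the 22 genes listed as TGF-beta targets, 20 were tested, 11 rose and 5 fell, with a median log2 fold change of 0.50, beside -0.01 over all tested genes. With the offset 9 were called higher and 4 lower, and the median was 0.20. TGFBI, a matrix protein named for its induction by TGF-beta, had 1550, 1500 and 1700 CPM in knockout and 1040, 965 and 924 CPM in control libraries. The groups were apart, and it rose by 0.70 and by 0.40 with the offset. CCN2 (CTGF in the files), another widely used target, fell, with 23.6, 26.0 and 29.3 CPM in knockout and 80.2, 70.0 and 77.4 CPM in control libraries, a log2 fold change of -1.53 (adjusted p = 2.09e-05). ZEB1 and ZEB2, transcription factors of the epithelial to mesenchymal transition, fell by 1.12 and 1.15, but with the offset they were at -0.23 and -0.05 and did not pass.

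Of the 9 other BMP targets 4 were tested: HEY1 (0.86) and MSX1 (0.46) rose and ATOH8 (-1.29) fell, with no call for MSX1 without control library 1 (0.47) or control library 3 (0.45) or with library totals (0.30), and -0.12 with the offset. SMAD9, the remaining BMP-type SMAD, had 0.125, 0.202 and 0.184 CPM in knockout and 2.41, 2.68 and 2.20 CPM in control libraries. It was 13.9-fold lower in knockout cells (log2 fold change -3.79, adjusted p = 2.21e-05), and -3.17 with the offset. ENG, the co-receptor endoglin, had 0.125, 0.0807 and 2.53 CPM in knockout and 4.69, 4.44 and 4.93 CPM in control libraries. Knockout library 3 stood between the others and the control libraries, and the value of -2.30 (adjusted p = 0.0265) did not pass without knockout library 1 (-1.81), control library 1 (-2.29) or control library 3 (-2.26), or with DESeq2 (-2.36), and was -5.45 without knockout library 3 and -3.75 with limma-voom. No gene of the 5 tested in that list, of receptors, co-receptors and SMAD9, rose, and 3 fell, the third being the co-receptor NRP1 (-0.81; -0.225 with the offset).

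Of 9 tested genes for the activation of latent TGF-beta, 6 fell and 3 rose with a median of -0.69, and with the offset 4 were called lower and 2 higher with a median of -0.02. ITGB8, a subunit of an integrin that activates latent TGF-beta, had 17.7, 15.2 and 21.7 CPM in knockout and 56.2, 91.5 and 86.6 CPM in control libraries. The groups were far apart, with a log2 fold change of -2.10 and of -0.99 with the offset. ITGB6 (-1.97; -1.31 with the offset) and their shared partner ITGAV (-1.0; 0.02 with the offset) also fell. PCSK6, a proprotein convertase, had 26, 17 and 41 reads in knockout and 1, 1 and 5 reads in control libraries. It rose by 3.48, from a control level near the floor. Among the SMAD modulators, 12 of 22 tested genes fell and 3 rose with a median of -0.39, and with the offset 8 were called lower and 8 higher with a median of 0.01. ZFYVE9, the SMAD anchor SARA, fell by 1.05 (-0.61 with the offset), and HGS, an endosomal protein that works with it, rose by 0.85 (0.44 with the offset). TAB2, an adaptor that couples the receptors to the kinase TAK1, fell by 1.21 (-0.71 with the offset), and USP9X, a deubiquitinase of SMAD4, fell by 1.62 (-0.52 with the offset). Of the other antagonists, 6 were tested, 2 fell and 1 rose, and with the offset 2 were called lower and 3 higher. TWSG1, a BMP-binding protein, fell by 1.14 (-0.47 with the offset), and FSTL1, a follistatin relative, fell by 0.39 but was at 0.29 and called higher with the offset. Among the other ligands, BMP6 had 15, 33 and 33 reads in knockout and 3, 7 and 1 reads in control libraries and rose by 2.80, and 9 of the 19 listed ligands had 0 reads in all 6 libraries.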

How the data were processed

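RNA was sequenced from 3 knockout and 3 control libraries. Per the labels' series design text, the authors mapped reads to GRCh38 with HISAT2 (2.0.4 per the submitters' processing notes) and counted them per gene with HTSeq. The sources used here give neither strand setting nor annotation release, so reads of overlapping genes cannot be told apart. The deposited values are raw read counts for 54261 symbols, not normalized. The members, lists and tests were chosen with earlier results of these data known.

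Knockout was tested against control by edgeR's quasi-likelihood test (R 4.3.3 with edgeR 4.0.16 and limma 3.58.1), using TMM scaling, filterByExpr (14398 genes kept) and Benjamini-Hochberg adjustment over all of them. CPM uses TMM-scaled library sizes, and SE is the log2 fold change over the root of F. The test was checked on simulated data. The biological coefficient of variation was 14.1%, and the first principal component, with 80.9% of the variance, separated the groups. Libraries of a group differed by more than sampling noise (chi-square per degree of freedom 3.06 to 73.4). Alternatives were DESeq2 1.42.0, limma-voom, other scalings and filters, a replicate block, each library left out, and a lowess offset (span 0.3) for transcript length and GC, known for 92.4% of tested genes. Coordinates and transcripts come from GENCODE 44 on GRCh38 and promoter windows from RefSeq, with GRCh38.p14 starts. All 43 members are described, and genes named from each further list come from its 3 called genes of smallest p per direction, of which 1 gene is not reported here. Exons of 22 members overlap another gene, by over 10% for TGFB2, INHBE, BMP4 and SMURF1.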

Additional observations from a re-analysis of the deposited data

How the results depend on the processing

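Of the 28 called members, 14 kept their call and direction in all 15 alternatives (TGFB2, TGFB3, INHBA, BMP2, BMP4, GDF11, LTBP3, LTBP4, TGFBR2, BMPR1A, BMPR2, PMEPA1, BAMBI and ID1), and 19 did so in all but the length and GC offset. With that offset 12 members were called lower, against 20 without it. Directions turned with the offset for TGFB1 (-0.15), INHBB (-0.088), LTBP1 (0.17), TGFBR1 (0.26), ACVR1 (-0.066), ACVR2B (0.23), SMAD2 (1.40), SMAD4 (0.97), SMAD5 (0.14), SMAD7 (-0.024), SMURF1 (0.009), SKI (0.10), SKIL (0.13), FSTL1 (0.29), ITGAV (0.018) and MSX1 (-0.12); what lies behind the trend that it removes was not tested. With library totals they turned for INHBB (-0.003), ACVR1 (-0.17) and ACVR2A (-0.055). ACVR1 also turned with limma-voom (-0.002), no filter (-0.017) and the replicate block (-0.001), and SKI with upper-quartile factors (0.003) and the stricter filter (0.001).

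With 1 library left out, 6 to 8 members were called higher and 14 to 20 lower. Uncalled members that turned ran from -0.036 to 0.074 (ACVR1), -0.184 to 0.006 (ACVR1B), -0.122 to 0.219 (ACVR2A), -0.339 to 0.004 (SMURF1), -0.109 to 0.165 (SKI) and -0.114 to 0.028 (SMAD4). Libraries with the same replicate number did not deviate together (correlations 0.02, -0.04 and 0.01), so the numbers pair nothing. With the replicate block 6 members were called higher and 20 lower, and 3895 and 4413 of all genes; TGFB1 (0.28) and BMP1 (0.32) were not called. Genes with few reads (TGFB3, INHBE, BMP4, BMP7 and ID3) are limited by depth.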
